A study of Mus musculus with 24 samples.

Results

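The comparison described here set the striatum of R6/2 mice against the cortex of R6/2 mice at 8 weeks of age. It used 6 of the 24 libraries of the series, chosen by their labels alone: 3 from striatum and 3 from cortex. In the R6/2 line a short piece of human huntingtin, holding the first exon and a long run of CAG repeats, was put into the mouse genome to model Huntington's disease. All 6 libraries, striatal and cortical, carried this transgene, so no difference between them is a difference between diseased and healthy animals. The other groups drawn on below were wild-type mice at 8 weeks and R6/2 and wild-type mice at 12 weeks, each with 3 striatal and 3 cortical libraries, all on a mixed C57Bl/6 / CBA background. The transgene is driven by a fragment of the human huntingtin promoter and is present in all cells, so it marks no cell type. Each library was polyadenylated RNA from a piece of brain, and nothing in the labels states that the 3 libraries of a group came from separate animals. The p-values therefore measure the spread between these libraries, which may be partly technical.

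The striatum is the main input nucleus of the basal ganglia. Nearly all of its neurons are inhibitory spiny projection neurons, which release GABA and fall into a direct pathway class, with dopamine D1 receptors, substance P and dynorphin, and an indirect pathway class, with dopamine D2 and adenosine receptors and enkephalin. Both classes turn dopamine and adenosine signals into changes of cyclic AMP. The cortex is built mainly of excitatory, glutamate-releasing pyramidal neurons in layers, with a minority of inhibitory interneurons. The striatum and the cortex are the regions that degenerate most in Huntington's disease. In bulk tissue, fewer cells of a type and less RNA per cell cannot be told apart.

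Levels are given as scaled RPKM: counts per kilobase of the deposited gene length and per unit of library size in genes, after TMM scaling, a normalization that centres most genes between libraries. Genes entered the test when their mean deposited RPKM over the 6 libraries was at least 0.5, which kept 11493 of 18669 genes. Gene counts summed to 23292568, 18312105 and 44625494 in the cortical libraries and to 7786455, 10693851 and 13007306 in the striatal ones. Beside the unequal depth, the share of the authors' library total that fell in genes was 48.0%, 54.3% and 58.8% in cortex against 25.7%, 27.7% and 28.3% in striatum, so this share and the tissue cannot be told apart in these 6 libraries. As a check of the labels, Gm12695, a gene at the R6/2 insertion site, had 105 counts in the striatal and 283 in the cortical R6/2 libraries, against 5 and 1 in the wild-type libraries of the same age.

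Genes of striatal and of cortical neurons were among those that separated the tissues. With edgeR's quasi-likelihood test and Benjamini-Hochberg adjusted p under 0.05, 319 genes (2.78%) were higher in striatum and 201 (1.75%) were lower, together 4.52% of those tested. Of these 520 genes, 500 differed at least 2-fold and 241 at least 4-fold, of which 173 were higher in striatum and 68 lower. Without the adjustment, 2081 genes had p under 0.05 where about 575 would be expected. The median log2 ratio of all genes tested was 0.02. With 3 libraries a tissue, levels without overlap were common. In 1339 genes (11.7%) all striatal levels lay above all cortical ones, and in 1453 (12.6%) they lay below. Genes of the neuron lists given below that lay far toward striatum included Six3, Drd2 and Isl1. Those far toward cortex included Emx1, Neurod2, Cck and Vip. Larger striatal ratios belonged to genes outside these lists, among them Dear1 (log2 10.5), Slc3a1 (7.61) and Klhl34 (7.57). They are described further below with a property of the libraries. When libraries were scaled to the authors' own library totals, which include reads outside genes, the median of all genes moved to -0.96 and the split turned to 196 higher and 7297 lower. All ratios below are therefore relative to the bulk of genes.

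**Figure D1:**
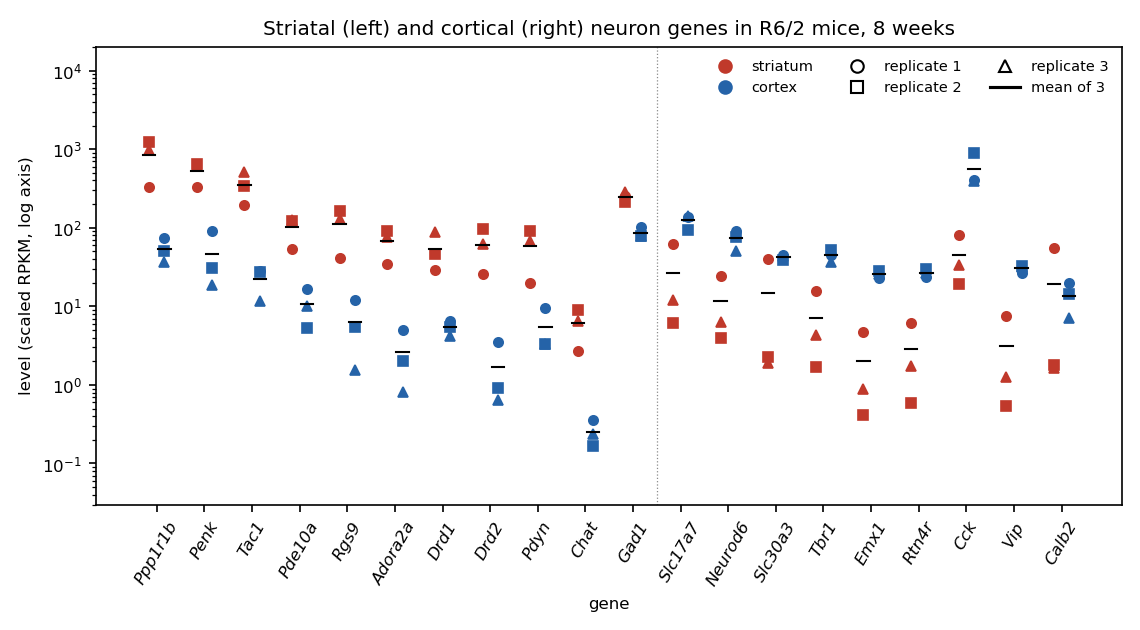
Level (scaled RPKM, log axis) of 20 genes in each of the 6 R6/2 libraries at 8 weeks, striatum in red and cortex in blue, with symbols for replicates 1, 2 and 3 and a black line at the mean of 3. Genes of striatal neurons stand left of the dotted line and genes of cortical neurons right of it, and striatal replicate 1 (red circles) lies toward the cortical libraries in most of them: Ppp1r1b was 331 there against 1222 and 981, and Slc17a7 was 62.4 against 6.08 and 12.2.

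The library called striatal replicate 1 stood apart from the other striatal libraries. It was the lowest of the 3 striatal libraries for 26 of the 28 tested genes of the shared projection neuron list, for all 8 direct and all 4 indirect pathway genes, and for 38.7% of all genes tested. In the cortical projection neuron list it was the highest of the 3 for 13 of 17 genes, against 33.5% of all genes. Calb2, which encodes calretinin, a calcium-binding protein, was 54.6, 1.77 and 1.63 in the striatal libraries and 19.8, 14.2 and 7.13 in the cortical ones. The summed level of the shared projection neuron list was 2409 in striatal replicate 1 against 5452 and 5538 in the others, and that of the cortical projection neuron list was 1216 against 880 and 907. The thalamus list, which holds Calb2, and the septum and pallidum list had their highest sums of the 6 libraries in striatal replicate 1. The thalamus sum was 109 there, 31.3 and 19.2 in the other striatal libraries and 27.2 to 55.1 in cortex. The septum and pallidum sum was 88.1, 23.6 and 12.9 in striatum and 13.7 to 25.2 in cortex. Other region lists did not have their highest sum in striatal replicate 1. The hypothalamus sum was 26.1 there and 26.6 in cortical replicate 1. The hippocampus sum was 60.1, 98.4 and 72.6 in striatum. The midbrain dopamine sum was 48.1, 58.1 and 46.9 in striatum and up to 73.4 in cortex. Cortical replicate 1 was in turn the highest cortical library for 16 of the 28 shared, 7 of the 8 direct and all 4 indirect pathway genes, against 24.5% of all genes. The part of these levels in the results was not tested beyond leaving each library out, and counts without striatal replicate 1 are given beside the projection neuron lists.

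Genes shared by both classes of projection neuron were the group most shifted toward striatum in number. Of 30 listed genes 28 were tested; 22 passed the test as higher in striatum and none as lower, where 2.78% and 1.75% of all genes did. The median log2 ratio of the 28 was 2.55. Ppp1r1b encodes DARPP-32, the phosphatase inhibitor that relays dopamine signals in these neurons. It was 331, 1222 and 981 in striatum and 75.2, 50.0 and 36.3 in cortex, without overlap, a log2 ratio of 3.99 (SE 0.49, adjusted p = 0.00153). Pde10a, the phosphodiesterase that breaks down cyclic nucleotides in these cells, was 53.5, 123 and 126 against 16.8, 5.27 and 10.1 (log2 3.25, SE 0.47, adjusted p = 0.00348). In both genes all striatal libraries exceeded all cortical ones, as in 11.7% of all genes tested. The striatal replicate 1 level was the lowest of the striatal levels in both.

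Several transcription factors of the shared list passed too. Bcl11b, which encodes the projection neuron factor CTIP2, was 61.5, 86.0 and 98.5 against 18.5, 15.7 and 11.7 (log2 2.45, adjusted p = 0.000992). Six3 was 17.4, 66.1 and 36.2 against 2.07, 0.635 and 0.0280 (log2 5.51, adjusted p = 0.0122). Rarb and Rxrg, nuclear receptors through which retinoic acid acts, had log2 ratios of 2.86 (adjusted p = 0.00425) and 3.29 (adjusted p = 0.00216). The 6 tested members of this list that did not pass were Arpp21 (log2 1.11), Foxp1 (1.00), Kcnh4 (1.47), Strn (1.59), Sh3rf2 (4.83) and Arpp19, which was level between the tissues at -0.04. Without striatal replicate 1, 27 of the 28 passed, among them Foxp1 (log2 1.33, adjusted p = 0.0149) and Strn (log2 1.85, adjusted p = 0.0143). Leaving out the other libraries 1 at a time left 14 (without striatal replicate 2) to 21 members (without cortical replicate 1); Six3 lost its call without striatal replicate 2 (adjusted p = 0.0798) and cortical replicate 2 (adjusted p = 0.0578).

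Both pathway classes contributed. Of the 8 direct pathway genes 6 passed as higher (median log2 3.45), and all 4 tested indirect pathway genes did (median log2 4.36). Among all genes tested 2.78% passed as higher. Drd1, the D1 dopamine receptor, was 29.1, 46.1 and 88.1 in striatum and 6.59, 5.42 and 4.16 in cortex (log2 3.36, SE 0.40, adjusted p = 0.00152). Tac1, the precursor of substance P, was 196, 335 and 510 against 27.8, 27.3 and 11.8 (log2 3.99, SE 0.44, adjusted p = 0.001). Neither gene overlapped between tissues, where 11.7% of all genes tested were higher in striatum without overlap. Slc35d3, a transporter family member that D1 neurons need to bring the receptor to the surface, reached log2 4.94 (adjusted p = 0.00196). Isl1, the transcription factor of the direct pathway class, was 10.6, 22.6 and 19.9 against 1.47, 0.206 and 0 (log2 5.03, SE 1.1, adjusted p = 0.029). Chrm4, the M4 muscarinic receptor, had a log2 ratio of 0.82 and Eya1 one of 0.68, and neither passed.

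Drd2, the D2 dopamine receptor of the indirect pathway, was 25.5, 96.1 and 61.4 in striatum and 3.56, 0.920 and 0.648 in cortex (log2 5.18, SE 0.72, adjusted p = 0.00292). Adora2a, the adenosine receptor of this class, was 34.4, 91.3 and 76.9 against 4.95, 2 and 0.819 (log2 4.73, SE 0.65, adjusted p = 0.00275). Penk, the precursor of enkephalin, was 327, 652 and 617 against 89.8, 30.7 and 18.6 (log2 3.53, SE 0.56, adjusted p = 0.00617). Gpr6, an orphan receptor coupled to cyclic AMP, was 5.30, 19.3 and 19.0 against 1.34, 0.05 and 1.3 (log2 3.99, adjusted p = 0.0199). In all 4 genes the striatal levels lay above the cortical ones without overlap, as in 11.7% of all genes tested. The highest cortical level of each was in cortical replicate 1. Without striatal replicate 2 the calls of Penk (adjusted p = 0.0513), Gpr6 (0.103), Pdyn (0.0698), Isl1 (0.121) and Ebf1 (0.108) were lost, so that 3 direct and 2 indirect pathway genes remained past the threshold. Gpr6 also lost its call without striatal replicate 3 or cortical replicate 1, and Isl1 and Ebf1 without striatal replicate 3 or cortical replicate 2. Without striatal replicate 1 the counts were 7 and 4.

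Upstream sequences are shown for 3 of these genes and for 1 cortical gene, because the direct and indirect pathway genes rose together and cyclic AMP acts on transcription through a known short element. The cyclic AMP response element reads TGACGTCA and its core TGACG. Each line gives the 250 bases before the RefSeq start of the gene, 5′ to 3′ on the gene's strand, in the GRCm38.p6 build; capitals mark, in all 4 and on either strand, every core (TGACG or CGTCA) and every E-box CAGATG (or CATCTG), which NeuroD factors bind. The Gpr6 window is chr10:41072291-41072540 (minus strand), that of Tac1 chr6:7554811-7555060 (plus strand), that of Isl1 chr13:116309689-116309938 (minus strand) and that of Neurod2 chr11:98329646-98329895 (minus strand).
Gpr6: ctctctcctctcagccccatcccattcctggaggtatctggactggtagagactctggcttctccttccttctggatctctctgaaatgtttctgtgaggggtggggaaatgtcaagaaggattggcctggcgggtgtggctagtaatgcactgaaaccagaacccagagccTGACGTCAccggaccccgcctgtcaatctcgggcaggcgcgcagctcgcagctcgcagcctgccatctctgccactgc
Tac1: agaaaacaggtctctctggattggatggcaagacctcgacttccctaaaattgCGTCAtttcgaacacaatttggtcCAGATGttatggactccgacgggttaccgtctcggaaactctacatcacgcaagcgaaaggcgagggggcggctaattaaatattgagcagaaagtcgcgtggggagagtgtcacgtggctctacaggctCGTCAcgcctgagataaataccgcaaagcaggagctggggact
Isl1: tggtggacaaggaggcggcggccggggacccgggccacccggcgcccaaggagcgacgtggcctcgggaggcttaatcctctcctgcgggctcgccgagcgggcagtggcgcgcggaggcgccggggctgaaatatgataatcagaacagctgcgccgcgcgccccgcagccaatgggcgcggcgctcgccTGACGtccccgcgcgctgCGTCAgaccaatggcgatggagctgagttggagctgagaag
Neurod2: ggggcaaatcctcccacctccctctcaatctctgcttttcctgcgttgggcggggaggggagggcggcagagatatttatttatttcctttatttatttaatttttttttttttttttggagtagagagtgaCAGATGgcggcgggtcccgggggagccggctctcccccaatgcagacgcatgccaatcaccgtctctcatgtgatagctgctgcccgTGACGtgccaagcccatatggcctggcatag

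The 3 striatal genes were chosen for holding 2 cores each, and in Gpr6 these overlap as a full element. The cortical gene Neurod2 holds 1 core beside its E-box and the striatal gene Tac1 holds 1 E-box beside its cores, so these motifs do not divide the striatal from the cortical gene. The core was not more frequent across the striatal lists: 9 of the 53 RefSeq promoters of their 32 matched genes held TGACG on either strand (17.0%), against 26.2% of the 11939 promoters of genes tested. The full element was in 1 of the 53 (1.89%) and in 2.55% of the tested genes' promoters. CAGATG was in 2 of the 17 promoters of the 12 matched cortical projection neuron genes (11.8%) and in 9.93% of all tested promoters. A match is a run of letters in this window and no measure of binding.

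Of 4 tested genes of cholinergic interneurons, 2 passed as higher, where 2.78% of all genes did. Chat, the enzyme that makes acetylcholine, was 2.72, 8.97 and 6.60 against 0.362, 0.165 and 0.237 (log2 4.59, SE 0.56, adjusted p = 0.00152), and Slc5a7, the choline transporter, had log2 3.04 (adjusted p = 0.0448). The Slc5a7 call was lost without any of 4 libraries (cortical replicates 2 and 3, striatal replicates 2 and 3; adjusted p up to 0.134). Of 4 genes of GABA synthesis and release 3 passed as higher. The vesicular GABA transporter Slc32a1 was 71.0, 174 and 129 against 38.2, 26.5 and 33.6 (log2 1.95, adjusted p = 0.00797), and the GABA-synthesizing enzymes Gad1 and Gad2 had log2 1.55 (adjusted p = 0.00418) and 2.05 (adjusted p = 0.00617).

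**Figure D2:**
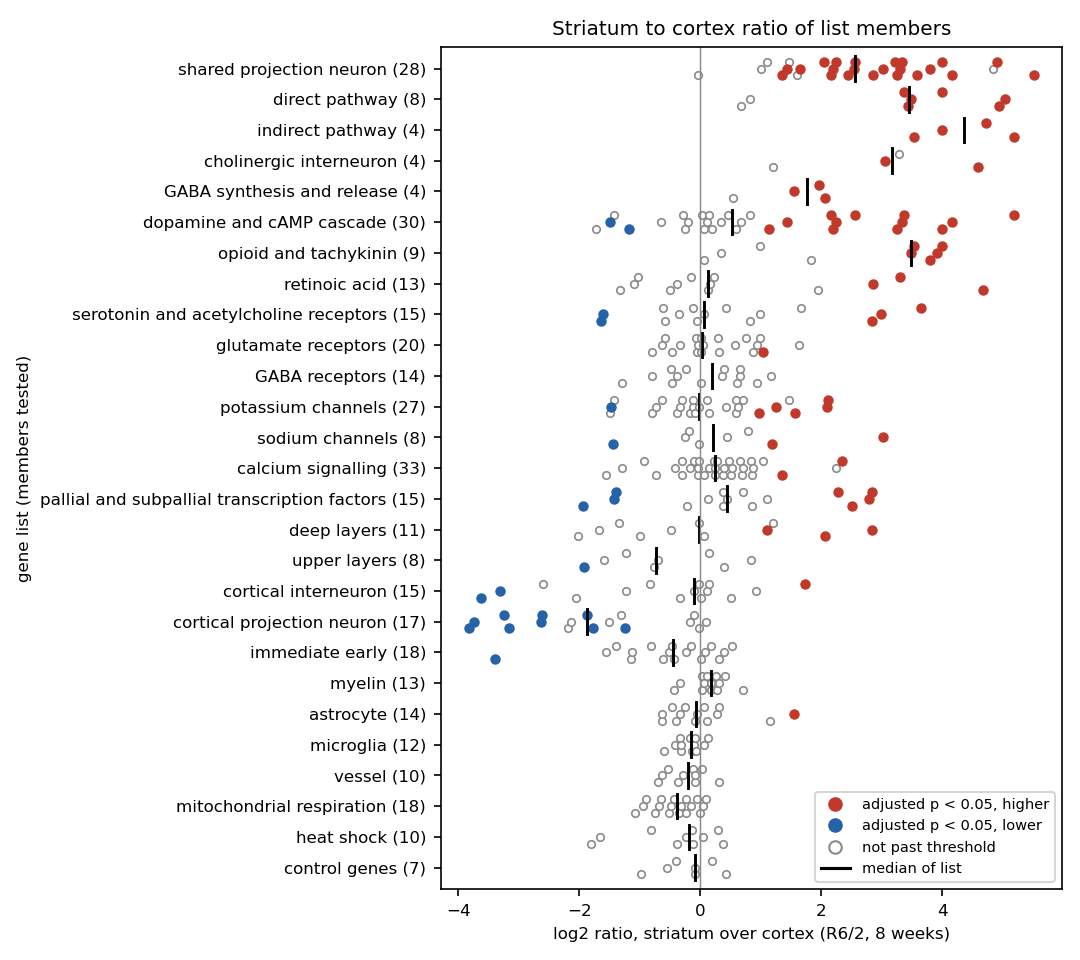
Log2 ratio of striatum over cortex (R6/2, 8 weeks) for each tested member of 27 gene lists, filled red or blue where edgeR's adjusted p was under 0.05 and open otherwise, with a black bar at the list's median. The projection neuron lists lie to the right (medians 2.55, 3.45 and 4.36) and the cortical projection neuron list to the left (median -1.87). The glial and vessel lists lie near 0, with medians from -0.20 (vessel) to 0.17 (myelin). The mitochondrial list has a median of -0.39.

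The pyramidal neuron genes of cortex were lower in striatum. Of 17 tested, 9 passed as lower and none as higher, where 1.75% and 2.78% of all genes did, and the median log2 ratio was -1.87. Emx1, a homeodomain factor of the cortical lineage, was 4.68, 0.409 and 0.896 in striatum and 22.9, 28.2 and 26.1 in cortex (log2 -3.73, SE 0.68, adjusted p = 0.0118). Neurod2, a factor of excitatory neurons whose upstream sequence is shown above, was 16.1, 2.19 and 4.17 against 64.0, 79.3 and 61.3 (log2 -3.17, adjusted p = 0.0155). In Emx1 and Neurod2, striatal replicate 1 lay well above the other striatal libraries. Mef2c, Rtn4r, Tbr1, Neurod6, Nptx1 and Lmo4 also passed, with log2 ratios from -3.24 (Rtn4r) to -1.25 (Lmo4). Each of these 8 calls was lost without at least 1 library: Emx1 lost its call without striatal replicate 2 (adjusted p = 0.0513), Neurod2 and Mef2c without striatal replicate 2 or 3 (up to 0.0589 and 0.0633), Rtn4r without cortical replicate 2 or striatal replicate 3 (up to 0.0724), Neurod6, Nptx1 and Lmo4 without any of 4 libraries (up to 0.123, 0.124 and 0.0925) and Tbr1 without any of 5 (up to 0.165).

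Slc17a7, the vesicular glutamate transporter that defines cortical excitatory neurons, was 62.4, 6.08 and 12.2 in striatum and 136, 93.6 and 142 in cortex. Its log2 ratio of -2.18 did not pass (adjusted p = 0.12), although the tissues did not overlap. Of all genes tested, 12.6% were lower in striatum without overlap. Slc30a3, the zinc transporter of glutamatergic vesicles, was 40.4, 2.29 and 1.93 against 45.5, 39.3 and 43.7, and only striatal replicate 1 was near cortex. Without striatal replicate 1, 12 of the 17 genes passed as lower, among them Slc17a7 (log2 -3.74, adjusted p = 0.000218), Slc30a3 (log2 -4.32, adjusted p = 6.87e-05), Nrn1 (log2 -4.68, adjusted p = 5.57e-05) and Neurod1 (log2 -5.46, adjusted p = 0.000178). Without striatal replicate 2 or 3, 2 passed, and without cortical replicate 1, 2 or 3, 5, 5 and 8 did. With the GC and length trend of each library removed, 6 passed. Camk2a and Itpka, kinases present in spiny and pyramidal neurons alike, had log2 ratios of -0.03 and -0.11.

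Interneuron peptides differed one by one. Of 15 tested genes of cortical interneurons, 2 passed as lower and 1 as higher in striatum, where 1.75% and 2.78% of all genes did. Cck, a peptide made by interneurons and by pyramidal neurons, was 80.9, 19.2 and 33.9 against 410, 896 and 391 (log2 -3.63, SE 0.54, adjusted p = 0.00418), and kept its call without each library in turn. Vip, the vasoactive intestinal peptide, was 7.53, 0.547 and 1.27 against 26.6, 33.1 and 31.9 (log2 -3.32, adjusted p = 0.029), and Reln, the secreted guidance protein reelin, was higher in striatum (log2 1.72, adjusted p = 0.0184). The Vip and Reln calls were each lost without any of 4 libraries, with adjusted p up to 0.101 for Vip (without striatal replicate 3) and 0.0964 for Reln (without striatal replicate 2). Sst, which both regions' interneurons make, had log2 -0.34 and Pvalb, the marker of fast-spiking interneurons, had -1.23, and neither passed. Calb2 had log2 0.51 with all 6 libraries and -2.99 without striatal replicate 1 (adjusted p = 0.00676).

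Factors that pattern the developing forebrain were divided between the tissues. Of 15 tested, 4 were higher in striatum and 3 lower, where 2.78% and 1.75% of all genes were. Dlx6, a factor of the ventral forebrain from which striatal neurons come, was 21.2, 39.5 and 35.8 against 5.45, 4.61 and 4.29 (log2 2.78, SE 0.32, adjusted p = 0.00124), Meis1 was 12.6, 11.2 and 11.4 against 2.54, 1.87 and 3.02 (log2 2.27, adjusted p = 0.00159), and Zfp503, a zinc finger factor of the striatal lineage, had log2 2.83 (adjusted p = 0.00152). Dlx5 passed as well, but Dlx1 was 25.3, 15.2 and 17.1 against 15.4, 12.8 and 17.2 (log2 0.37) and did not. Lower in striatum were Nfix, at 28, 24 and 26.5 against 97.4, 99.0 and 110 (log2 -1.93, SE 0.21, adjusted p = 0.000856), Lhx2, which specifies cortex (log2 -1.43, adjusted p = 0.00574), and Id2 (log2 -1.40, adjusted p = 0.0168). Meis1 and Nfix had striatal levels within a narrow range in all 3 libraries, including replicate 1. Dlx5 lost its call without striatal replicate 2 (adjusted p = 0.0689) and Id2 without striatal replicate 3 (0.0702).

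Lists named for cortical layers did not follow the pyramidal list as a whole. Of 11 deep layer genes, 3 were higher in striatum and none lower: Syt6 (log2 2.83, adjusted p = 0.00508), a synaptotagmin, and Foxp2 and Tle4, transcriptional regulators that projection neurons of striatum also express. Of 8 upper layer genes, only Cux2 passed, as lower (log2 -1.92, adjusted p = 0.0422). Among all genes tested 2.78% were higher in striatum and 1.75% lower. The calls of Foxp2, Tle4 and Cux2 were each lost without at least 2 of the 6 libraries (highest adjusted p 0.0584 for Foxp2 without striatal replicate 2, and 0.182 and 0.165 for Tle4 and Cux2 without striatal replicate 3), whereas the Syt6 call was kept without each library.

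Of 30 tested genes of the dopamine and cyclic AMP cascade, 12 were higher in striatum and 2 lower, where 2.78% and 1.75% of all genes were. Under the authors' library totals the split was 10 and 13, and with limma on RPKM it was 10 and 12, so the split by direction depends on the scaling. The receptors were given above. For coupling proteins, Gng7, the G protein gamma subunit that pairs with the olfactory alpha subunit, was 145, 495 and 475 against 40.4, 32.5 and 40.0 (log2 3.33, SE 0.42, adjusted p = 0.00169). Gnal, that alpha subunit, was 131, 192.3 and 232 against 43.5, 31.4 and 48.8 (log2 2.19, adjusted p = 0.00169), and Gnas, its counterpart in most other cells, was not analysed here. Rgs9, which shortens the signal of D2 receptors, was 41.6, 165 and 130 against 12.1, 5.46 and 1.56 (log2 4.16, SE 0.73, adjusted p = 0.0101). The Rgs9 call was lost without cortical replicate 2 (adjusted p = 0.0542) and without striatal replicate 2 (0.0685).

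Adenylyl cyclases, which make cyclic AMP, divided by isoform. Adcy5 was 63.4, 211 and 172 in striatum against 38.0, 25.5 and 38.1 in cortex (log2 2.16, adjusted p = 0.0126). Adcy2 was 24.1, 19.6 and 20.9 against 61.6, 65.1 and 60.1 (log2 -1.50, SE 0.21, adjusted p = 0.00279), and Adcy1, a calcium-stimulated cyclase, was 33.9, 39.4 and 33.5 against 80.6, 53.7 and 112 (log2 -1.17, adjusted p = 0.0382). Neither tissue overlapped the other in any of the 3, where 11.7% of all genes were higher and 12.6% lower without overlap. Downstream, the phosphodiesterases Pde1b (log2 2.23, adjusted p = 0.00326) and Pde7b (log2 2.56, adjusted p = 0.00515), the phosphatase Ptpn5 (log2 1.43, adjusted p = 0.0225) and the protein kinase A subunit Prkar2b (log2 1.14, adjusted p = 0.0167) were higher in striatum. Ppp1r1a, the relative of Ppp1r1b, was 39.6, 49.2 and 48.1 against 45.8, 75.0 and 46.0, a log2 ratio of -0.25. The Adcy1 call was lost without any library other than cortical replicate 2 (adjusted p up to 0.166), the Adcy5 call without cortical replicate 2 or striatal replicate 2 (up to 0.0752), the Ptpn5 call without any of 4 libraries (up to 0.0992) and the Prkar2b call without cortical or striatal replicate 3 (up to 0.109); under the authors' library totals Ptpn5 (log2 0.48) and Prkar2b (log2 0.17) did not pass.

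Among neuropeptide systems, 5 of 9 tested opioid and tachykinin genes were higher and none lower, where 2.78% and 1.75% of all genes were. Pdyn, the dynorphin precursor, was 19.8, 90.4 and 67.9 against 9.58, 3.28 and 3.31 (log2 3.48, adjusted p = 0.0101). Among the receptors 2 passed: Oprk1, the kappa opioid receptor for dynorphin, was 2.02, 4.13 and 5.57 against 0.383, 0.250 and 0.227 (log2 3.79, adjusted p = 0.00619), and Tacr1, the substance P receptor, was 4.73, 6.51 and 6.54 against 0.933, 0.0659 and 0.188 (log2 3.91, adjusted p = 0.0152). Without striatal replicate 2 the count fell from 5 to 2, as Pdyn (adjusted p = 0.0698), Tacr1 (0.0842) and Penk (0.0513) lost their calls. In the retinoic acid list 3 of 13 genes were higher, Rarb and Rxrg as above and Crabp1, a carrier of retinoic acid inside cells, at 9.77, 21.2 and 12.5 against 0.609, 1.33 and 0 (log2 4.66, adjusted p = 0.0227; lost without cortical replicate 1 or striatal replicate 2 or 3, adjusted p up to 0.109).

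Of 15 receptors for serotonin and acetylcholine, 3 were higher in striatum and 2 lower, where 2.78% and 1.75% of all genes were. Htr2c was 59.1, 39.6 and 50.8 against 13.9, 5.24 and 1.99 (log2 2.83, adjusted p = 0.0221), and Htr1d was 3.13, 3.63 and 3.44 against 0.570, 0.0558 and 0.187 (log2 3.65, adjusted p = 0.013). Chrna4, a nicotinic subunit, was 5.01, 5.86 and 2.87 against 14, 16 and 13.8 (log2 -1.64, SE 0.29, adjusted p = 0.0107), and the M3 muscarinic receptor Chrm3 had log2 -1.60 (adjusted p = 0.0149). Htr1b was the other higher receptor (log2 2.99, adjusted p = 0.0263). Htr1d and Chrna4 kept their calls without each library, while Htr2c, Htr1b and Chrm3 lost theirs without at least 2 (adjusted p up to 0.0925, 0.125 and 0.0845, without cortical replicate 2, striatal replicate 2 and striatal replicate 3 respectively).

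Ion channels changed by subunit and not as families. Of 27 potassium channel genes 5 were higher and 1 lower, where 2.78% and 1.75% of all genes were. The median log2 ratio of the 27 was -0.03. Kcnab1, an auxiliary subunit of voltage-gated channels, was 115, 140 and 197 against 48.6, 35.9 and 22.7 (log2 2.10, SE 0.33, adjusted p = 0.00543) and kept its call without each library. Kcnip2, a subunit of the A-type channels, was 109, 146 and 153 against 36.6, 17.2 and 42.6 (log2 2.11, adjusted p = 0.00755), lost without striatal replicate 2 (adjusted p = 0.0513). Of 8 sodium channel genes, Scn4b, a beta subunit of spiny neurons, was 46.7, 172 and 193 against 31.9, 9.27 and 9.72 (log2 3.02, adjusted p = 0.021). The related Scn3b had log2 0.78 and did not pass. Scn4b lost its call without any of 4 libraries (adjusted p up to 0.106, without striatal replicate 2).

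The receptor and calcium lists held few calls, as lists of their sizes would at the rate of all genes tested (4.52%). Of 20 glutamate receptor genes only Gria1 passed (log2 1.04, adjusted p = 0.0414), a call lost without 5 of the 6 libraries and under the authors' library totals (log2 0.07). None of 14 GABA receptor genes passed, including Gabra2 (log2 0.65) and Gabra5 (log2 -0.47). Of 33 genes of calcium signalling, Ryr3, an intracellular calcium release channel, was 12.2, 22 and 15.4 against 5.28, 2.69 and 1.91 (log2 2.35, adjusted p = 0.00834; 0.0569 without striatal replicate 2), and Cacna2d3, a channel subunit, had log2 1.34 (adjusted p = 0.0387; up to 0.169, lost without 5 of the 6 libraries).

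Markers of other cells were checked as lists. Of all genes tested 4.52% passed, and at that rate lists this short would hold few or none. No gene passed among 13 of myelin, 6 of oligodendrocyte precursors, 12 of microglia, 10 of vessels, 6 of meninges, 4 of ependyma, 6 of thalamus and 3 of hypothalamus. The summed myelin level ranged from 1765 to 3642 in striatum and from 1401 to 4981 in cortex, and the astrocyte sum from 1483 to 1799 against 1605 to 2313. Of 14 astrocyte genes, Agt, angiotensinogen, passed as higher (log2 1.55, adjusted p = 0.0477; lost without 5 of the 6 libraries, adjusted p up to 0.159). Both tested choroid plexus genes were higher: Ttr, transthyretin, was 45.7, 1525 and 85.5 against 17.4, 9.54 and 1.1 (log2 5.91, SE 1.42, adjusted p = 0.0438), and Clic6 was 10.5, 24.8 and 13.4 against 1.08, 0.658 and 0 (log2 4.87, adjusted p = 0.0263). Striatal replicate 2 held far more Ttr than any other of the 6 libraries, and without it the log2 ratio was 2.84 (adjusted p = 0.16); the Ttr call was also lost without any one cortical library. Clic6 lost its call without striatal replicate 2 (adjusted p = 0.121) or cortical replicate 2. Among genes of other regions, Wfs1 of the hippocampus list was 47.1, 61.1 and 52.5 against 15.4, 13.2 and 17.1 (log2 1.85, SE 0.22, adjusted p = 0.00152), and Slc18a2, the vesicular monoamine transporter, was 7.48, 2.48 and 3.85 against 0.0995, 0.0371 and 0.124 (log2 5.63, adjusted p = 0.000931). The part of choroid plexus in the striatal pieces was not tested.

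Of the genes further toward cortex that belong to no neuron list above, Dkkl1, a secreted relative of the Wnt inhibitors, was 1.52, 0 and 0.508 in striatum and 19.6, 32.7 and 16.3 in cortex (log2 -5.17, SE 0.75, adjusted p = 0.00392). Igfbp6, a binding protein of insulin-like growth factors, was 4.67, 5.18 and 2.44 against 27.8, 55.1 and 31.8 (log2 -3.19, adjusted p = 0.00152). Of the 18 tested genes of the immediate early list, which respond to neuronal activity, only Ier2 passed, where 4.52% of all genes did. Ier2 was 0.982, 0.762 and 1.23 against 7.72, 15.8 and 8.89 (log2 -3.39, adjusted p = 0.00158). Fosl1, a Fos family gene that is not on this list, was called higher in striatum, with 234 counts against 1. The signalling ligand Wnt4 passed too (log2 -3.44, adjusted p = 0.0202), and lost its call without cortical replicate 1 (0.0552) or cortical replicate 2 (0.0662).

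Among called genes with a mean deposited RPKM of at least 5 in striatum, the largest ratios belonged to a different set of genes. Slc3a1, an amino acid transporter subunit of kidney and gut, was 53.8, 38.8 and 43.9 in striatum and 0.415, 0.190 and 0.125 in cortex (log2 7.61, SE 0.46, adjusted p = 7.83e-05). Slc24a5, a pigment cell ion exchanger, was 50.5, 16.6 and 32.5 against 0.124, 0.0324 and 0 (log2 9.48, adjusted p = 0.000472), and Cntd1 was 25.3, 17.6 and 23.8 against 0.184, 0.400 and 0.470 (log2 5.98, adjusted p = 7.83e-05). Dear1 had 299 counts in the striatal libraries and 0 in the cortical ones, so that it was at least 266-fold higher when the cortical group as a whole is given 3 counts, the limit that a count of 0 allows. Klhl34 was 12.7, 28.7 and 20.3 against 0.213, 0.167 and 0. Striatal replicate 1 was not low in Slc3a1, Slc24a5 or Cntd1, unlike in the projection neuron genes.

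**Figure D3:**
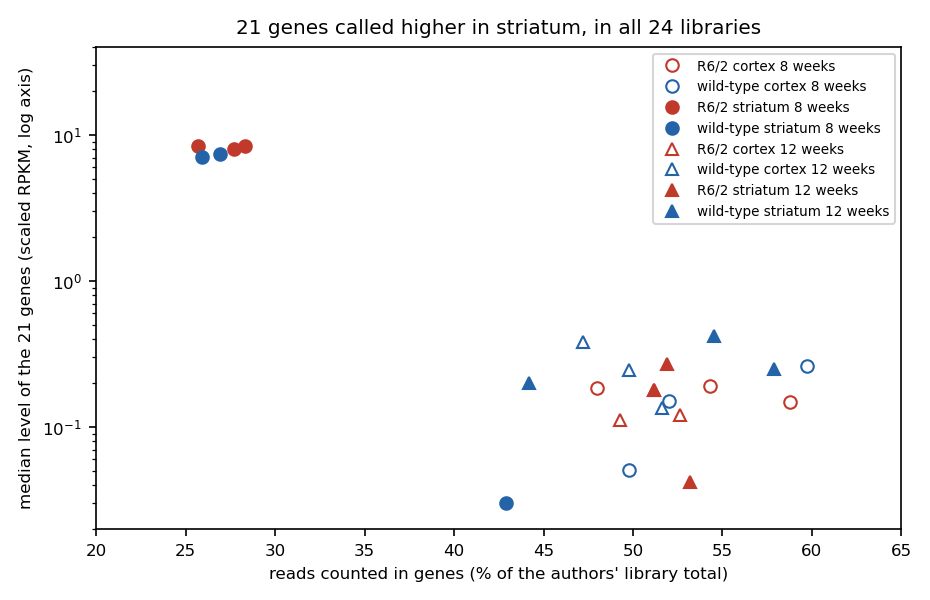
Median level (scaled RPKM, log axis) over 21 genes called higher in striatum, in each of the 24 libraries, against the percent of the authors' library total counted in genes; filled symbols are striatum, open ones cortex, circles 8 weeks and triangles 12 weeks, and a median of 0 is drawn at the bottom. The 5 striatal libraries at 8 weeks with 25.7% to 28.3% in genes have medians from 7.07 to 8.39, and the other 19 libraries have medians of 0.42 or less.

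Several of these genes went with a property of the libraries. Wild-type striatum at 8 weeks had 42.9%, 26.9% and 25.9% of its reads in genes, and Slc3a1 was 0.193, 53.6 and 46.4 in those 3 libraries in the same order. In R6/2 striatum at 12 weeks, where 51.2% to 53.2% of reads lay in genes, the mean Slc3a1 level was 1.67. In all, 21 of the 319 genes higher in striatum had levels under 0.2 of their lowest R6/2 striatal level at 8 weeks in each striatal library with over 40% of reads in genes, and at least 0.5 of it in wild-type replicates 2 and 3. This set was picked after its values were seen and is a description. Of the 21, 16 share at least 50 exonic bases with a gene on the other strand in the GENCODE annotation, where 1169 of all 11493 genes tested do (10.2%). Slc3a1 overlaps Prepl over 601 bases, and Prepl was 99.9 ± 19.5 in striatum and 98.0 ± 53.9 in cortex (SD, n = 3). Cntd1 overlaps Becn1 over 1394 bases. Slc24a5, which is not among the 21, overlaps Myef2 over 714. Dear1 and Klhl34 are among the 21 and overlap no gene on the other strand.

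Across all calls, 68 of the 319 higher genes (21.3%) had such an overlap and 11 of the 201 lower ones (5.47%), and so did 21 of the 50 genes at least 16-fold higher. The libraries were made to keep strand, and the sources used here do not give whether the counting used it, so that reads of a gene and its opposite-strand partner cannot be told apart. The part of the library property in these calls was not tested. With the overlapping genes removed, 241 genes were higher and 174 lower, and 20 of the shared, 6 of the direct and 4 of the indirect pathway genes were still called higher, since only Gnal and Rarb of those lists overlap another gene. Pter, in the same top list without an overlap, was 83.7, 3.24 and 7.45 against 0.869, 1.24 and 0.803, so that 1 library set its ratio; its call was lost without any one cortical library (adjusted p up to 0.0926).

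The same tissues were set side by side in mice that share no library with these. In wild-type mice at 8 weeks, 216 genes (1.88%) were higher in striatum and 206 (1.79%) lower. Of the 319 genes higher in R6/2 striatum, 120 also passed there in the same direction (37.6%), which is 55.6% of the 216; of the 201 lower, 62 did (30.8%), which is 30.1% of the 206. None passed in the opposite direction. Of the 319 and the 201, 307 and 194 reached the level minimum and were tested there. In R6/2 mice at 12 weeks, 14.7% of genes were higher in striatum and 11.5% lower. Only 278 of the 319 and 195 of the 201 were tested there. Of the 319, 158 passed in the same direction, and 102 of the 201 did. None of those tested passed in the opposite one. In wild-type mice at 12 weeks, 10.1% were higher and 9.95% lower. There 280 of the 319 and 199 of the 201 were tested, and 190 and 131 passed in the same direction. The 1 gene that passed there in the opposite direction was Otof, a calcium sensor of synaptic vesicle release, which is named after its values were seen: its log2 ratio was 3.21 here (adjusted p = 0.00197) and -1.20 in wild-type mice at 12 weeks (adjusted p = 0.0109). Across the 11233 genes tested in both, the log2 ratios of R6/2 and wild-type mice at 8 weeks had a Pearson r of 0.72, and across the 11369 genes tested at both ages of R6/2 mice r was 0.38; for wild-type mice at 12 weeks it was 0.54 across 11340 genes. These are correlations across genes, which are not independent replicates, and the 8-week libraries of both genotypes share the low share of reads in genes in most striatal samples.

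**Figure D4:**
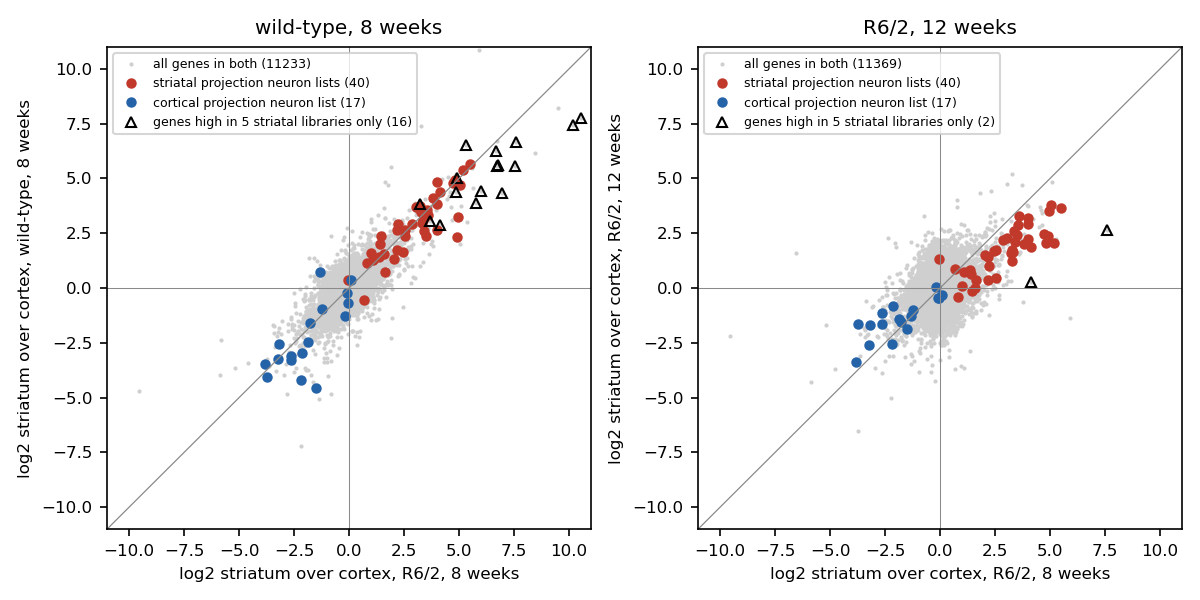
Log2 ratio of striatum over cortex in R6/2 mice at 8 weeks (x axis) against that in wild-type mice at 8 weeks (left) and in R6/2 mice at 12 weeks (right), one grey point a gene, with the 40 tested genes of the striatal projection neuron lists in red, the 17 cortical projection neuron genes in blue and the genes high in 5 striatal libraries as open triangles; the grey diagonal marks equal ratios. On the left both lists lie along the diagonal, and on the right most red points lie below it. Genes under the level minimum in a comparison are not drawn, so the right panel holds only Slc3a1 and Acat3 as triangles.

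The test of the difference between genotypes found no gene. Of 11514 genes tested for a different striatum to cortex ratio in R6/2 and wild-type mice at 8 weeks, 0 passed with edgeR (smallest adjusted p = 0.936), with DESeq2 and with limma; unadjusted p was under 0.05 for 432 genes with edgeR, where about 576 would be expected, for 560 with DESeq2 and for 648 with limma. The shared projection neuron list had a median log2 ratio of 2.55 in R6/2 mice and 2.66 in wild-type mice, the direct pathway list 3.45 and 2.64, and the indirect pathway list 4.36 and 4.81. None of the 40 tested members of these 3 lists passed for the difference, and 2 had unadjusted p under 0.05. A p that misses the threshold does not show that the ratios were alike: for Ppp1r1b they were 3.99 (SE 0.49) and 3.85, for Drd2 5.18 (SE 0.72) and 5.40, and for Penk 3.53 (SE 0.56) and 3.56. Like ratios do not mean like levels. Shared projection neuron sums were 2409 to 5538 in R6/2 and 6821 to 10249 in wild-type striatum. In cortex they were 1198.5 to 1378.5 and 2278 to 2763. Indirect pathway sums in striatum were 393 to 858 and 1747 to 2242. Direct pathway sums in striatum overlapped, at 291 to 769 and 475 to 1114. These sums were not tested between genotypes.

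Between the ages of R6/2 mice the test found 82 genes (0.704%) with a larger and 86 (0.738%) with a smaller striatum to cortex ratio at 12 weeks, of 11648 tested. Of the 86, 33 were among the genes higher in striatum at 8 weeks, and 27 overlap a gene on the other strand (31.4%). At 8 weeks the striatal R6/2 libraries had 25.7% to 28.3% of reads in genes and at 12 weeks 51.2% to 53.2%, so age and this share cannot be told apart in striatum. With overlapping genes left out, a setting chosen after seeing the data, the counts were 8 and 2. Only 13 of the 82 (15.9%) and 27 of the 86 overlap, so most of the calls lost were of genes without an overlap. No member of the 3 striatal projection neuron lists passed, but 38 of the 40 had a smaller ratio at 12 weeks, with a median difference of -1.27 in log2 (-0.01 over all genes), and 18 had unadjusted p under 0.05, where 2911 of 11435 of the genes tested here did.

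**Figure D5:**
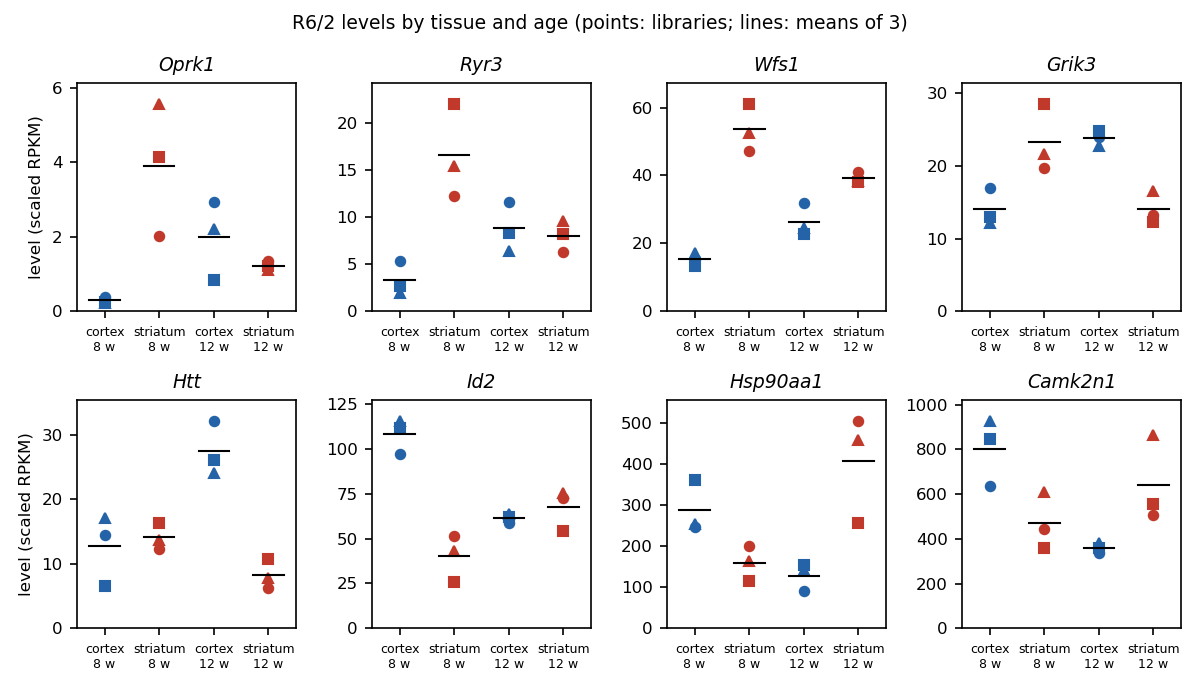
Level (scaled RPKM, linear axes from 0) of 8 genes in the 12 R6/2 libraries, by tissue and age, with cortex in blue, striatum in red, symbols for replicates 1, 2 and 3 and a black line at the mean of 3. Striatum exceeds cortex for Oprk1, Ryr3 and Wfs1 at 8 weeks, and Htt in cortex is higher at 12 than at 8 weeks.

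List members that passed this test went both ways. The striatum to cortex ratio of Oprk1 fell from log2 3.79 at 8 weeks to -0.62 at 12 weeks (difference -4.45, SE 0.81, adjusted p = 0.03), with mean levels of 3.90 ± 1.79 in striatum and 0.287 ± 0.084 in cortex at 8 weeks and 1.22 ± 0.12 and 1.99 ± 1.07 at 12 weeks (SD, n = 3). Ryr3 (difference -2.44), Wfs1 (-1.24) and Grik3, a kainate receptor (-1.49), also had smaller ratios at 12 weeks. Hsp90aa1, a stress-responsive chaperone, went the other way (difference 2.52, SE 0.42, adjusted p = 0.017), from 160 ± 42 in striatum and 288 ± 64 in cortex to 407 ± 132 and 129 ± 34 (SD, n = 3), as did Id2 (difference 1.58). For Htt, the mouse huntingtin gene, the levels at 8 weeks were 12.3, 16.4 and 13.7 in striatum and 14.5, 6.64 and 17.2 in cortex, overlapping (log2 0.17, adjusted p = 0.823); at 12 weeks they averaged 8.28 ± 2.34 and 27.5 ± 4.2 (SD, n = 3), and the ratio differed between ages by -1.86 (adjusted p = 0.048). Leaving out 1 library changed the number of genes past this test from 82 to between 0 (without striatal replicate 3 at 8 weeks or cortical replicate 1 at 12 weeks) and 389 for larger ratios, and from 86 to between 6 and 282 for smaller ones; the highest counts were without striatal replicate 1 at 8 weeks.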

How the data were processed

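Strand-specific paired-end libraries of polyadenylated RNA from flash-frozen tissue were sequenced on Illumina instruments, per the labels' protocols. The authors deposited whole-number read counts per gene and RPKM values, which divide reads by gene length and by a library total that includes reads outside genes. Bowtie, DESeq and the mm9 build are named in the submitters' processing notes; which program counted the reads, and whether by strand, is not stated. Levels were recomputed from the deposited counts, TMM factors and, for each gene, the deposited length most common over the 24 libraries. All 18669 deposited lengths differed from these in R6/2 cortical replicate 3 at 8 weeks. The same held for R6/2 cortical replicate 2 and R6/2 striatal replicate 3 at 12 weeks. Deposited RPKM values were used unchanged. The test was edgeR's quasi-likelihood test (edgeR 4.0.16, R 4.3.3, two-sided) on the counts of the 6 libraries, without covariates, with Benjamini-Hochberg adjustment over all genes tested and a threshold of 0.05; the differences between genotypes and ages were interaction terms over 12 libraries. Adjusted p-values in the text are edgeR's unless DESeq2 1.42.0 or limma 3.58.1 is named. Symbols came from the RefSeq GRCm38.p6 table through Entrez IDs (18594 of 18669 matched; the other 75 keep the deposited symbol). GC content and opposite-strand overlap of at least 50 bases came from GENCODE M21, another build than the files use, so no coordinates of it are given.

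Named genes are the 10 largest changes in each direction among called genes whose groups do not overlap in RPKM and whose mean RPKM in the higher group is at least 5, up to 4 members a list in each direction with the lowest adjusted p, the first 3 of each list, pairs of related genes, and, for interactions, the 8 largest in each direction and list members past the threshold. Some genes that this rule names are not reported here. The genes, lists and tests were chosen with earlier results of these data known. Replicates differed by more than counting noise (chi-square per degree of freedom 35.3 to 155), so none were merged. The scripts were tested on simulated data. Alternatives were DESeq2 and its size factors, other level minimums (none, and RPKM 2), limma on log2(RPKM + 0.5), the authors' totals, removal of GC and length trends, a spread shared over 24 libraries, a replicate block, larger fold changes, leaving out each library and, added after seeing the data, leaving out overlapping genes.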

Additional observations from a re-analysis of the deposited data

Results flagged for a closer look

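The striatum to cortex ratio differed between 8 and 12 weeks in R6/2 mice, by edgeR's interaction test, for each of the following genes, given as the log2 ratio at 12 weeks minus that at 8 weeks. Larger at 12 weeks were Eps8l1 (4.0), Apoo, a mitochondrial membrane protein (3.39), Proca1 (3.03), the ribosomal protein paralog Rpl22l1 (2.89), Lypd6b (2.78), the tubulin cofactor Tbca (2.73), Ccdc34 (2.53) and Serf1 (2.53). Smaller at 12 weeks were Msmp (-10.07), Fbxl22 (-8.06), Klhl34 (-6.95), Ptger1 (-6.75), Kif20a (-6.04), Slc3a1 (-5.00) and Cntd1 (-4.64). All 7 of these were called higher in striatum at 8 weeks, and 5 of them (Msmp, Ptger1, Kif20a, Slc3a1 and Cntd1) overlap a gene on the other strand. All but Ptger1 are among the 21 genes described above that went with the share of reads in genes. In wild-type striatal replicate 1 at 8 weeks, with 42.9% in genes, Fbxl22 was 0.488 and Klhl34 was 0. Age and this share cannot be told apart in R6/2 striatum.

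Members of the gene lists with a smaller ratio at 12 weeks were Oprk1 (-4.45), the calcium channel Cacna1h (-3.49), Ryr3 (-2.44), Htt (-1.86), Grik3 (-1.49) and Wfs1 (-1.24). Those with a larger one were Hsp90aa1 (2.52), the respiratory chain component Ndufa4 (1.62), Camk2n1, an inhibitor of CaM kinase II (1.61), and Id2 (1.58). Ndufa4 was 468 ± 76 in striatum and 610 ± 200 in cortex at 8 weeks and 857 ± 231 and 366 ± 68 at 12 weeks (SD, n = 3). Of these 25 genes, 21 lost the call without striatal replicate 3 at 8 weeks and 20 without cortical replicate 1 at 12 weeks.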

How the results depend on the processing

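Against 319 genes higher and 201 lower in striatum, DESeq2 called 494 and 446, limma on log2(RPKM + 0.5) 190 and 7340, and the authors' totals 196 and 7297; the last 2 scalings moved the median of all genes to -0.85 and -0.96. A minimum RPKM of 2 left 202 higher, a spread shared over 24 libraries gave 341 lower, and a fold change of at least 4 left 173 and 68. Leaving out 1 library gave 142 to 344 higher and 65 to 307 lower: striatal replicate 2 (142 and 70), striatal replicate 3 (166 and 65), cortical replicate 1 (111 lower) and striatal replicate 1 (307 lower) moved a count by over 1.5 times. Calb2 (0.51) ranged from -2.99, without striatal replicate 1, to 1.07, without striatal replicate 3. Of 90 named and called genes, 43 kept the call without each library and 39 under every setting in which they were fitted. The cause was not tested.

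For the difference between ages (82 larger, 86 smaller), DESeq2 called 704 and 621, no level minimum 206 and 171, limma 4577 larger, the authors' totals 4804 and 57, removal of GC and length trends 129 larger, and the fit without overlapping genes 8 and 2. Leaving out 1 library gave 0 to 389 larger and 6 to 282 smaller. No setting gave a call for the difference between genotypes.

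Each of 2 title numbers occurs in both tissues, and the labels do not say what they mark. Deviations of same-numbered libraries correlated by -0.032 and 0.074, and those of differently numbered ones by -0.135 to 0.134. With so few libraries this cannot decide whether a number marks an animal. The main test used no pairs. The replicate block on the 4 numbered libraries gave 226 higher and 101 lower from fewer samples, and as a random effect 316 higher; with the block the difference between genotypes had 0 calls. No paired analysis was possible for the ages because the 12-week titles share no number across tissues. The striatal libraries had 7786455 to 13007306 counts in genes, against 18312105 to 44625494 in cortex, which limits low genes in striatum most.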

Other observations

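None of 18 genes of mitochondrial respiration (median log2 -0.39), 17 of cholesterol synthesis (-0.15), 10 of heat shock proteins (-0.18), 16 of the circadian clock (0.22) or 9 of the interferon response (-0.21) passed edgeR's test at 8 weeks. The same held for 11 H3K4 methyltransferases and partners (median 0.31), 4 H3K4 demethylases (0.32) and 8 endocannabinoid genes (-0.51). Of all genes tested 4.52% passed, and at that rate lists of these sizes would hold few or none.

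The summed level of the shared projection neuron list in R6/2 striatum was 2409, 5452 and 5538 at 8 weeks and 2292, 2403 and 3901 at 12 weeks. In wild-type striatum it was 10249, 6821 and 7261 at 8 weeks and 12431, 12151 and 14493 at 12 weeks. Wild-type striatal replicate 1 at 8 weeks, the highest of its group, was also the one with 42.9% of reads in genes.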
